A study of Mus musculus with 66 samples.

Results

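The 8 genes described here take part in cholesterol synthesis: 3-hydroxy-3-methylglutaryl-CoA synthase (Hmgcs1), isopentenyl diphosphate isomerase (Idi1), farnesyl diphosphate synthase (Fdps), squalene synthase (Fdft1), squalene epoxidase (Sqle), lanosterol synthase (Lss), cytochrome b5 reductase (Cyb5r3) and the sterol sensor Insig1. They were taken by gene symbol from the deposited table, and the values of all transcripts of a gene were added, which gave 8 genes of 30452. Each symbol matched 1 Ensembl gene, and all 8 passed the filter on low values in every comparison. Expression was measured by RNA sequencing in 66 sections of the distal gut of 19 wild-type C57Bl/6 mice, bought at 6 weeks of age. The controls were 4 mice killed at day 0 without injury. The other mice came from a protocol of 3% dextran sulfate sodium (DSS), a detergent-like polysaccharide that injures the colonic epithelium, for 6 days from day 0. They were killed, 3 per day, at days 3, 6, 9, 14 and 20, so the mice of day 3 had not completed the course. From all 19 mice there is a section of mid-colon, of rectum and of anus. The 9 mice killed at day 9 or later also gave a section of squamous neo-epithelium. The muscle layer was removed before RNA isolation, but the anal sections held skeletal muscle RNA, as given below. Values are in TPM, the length-adjusted share of a library that each transcript takes. Every change given below is a difference in log2(TPM + 1), tested with limma over all genes. A gene was called where its Benjamini-Hochberg adjusted p was under 0.05.

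Cells make cholesterol from acetyl-CoA. HMG-CoA synthase acts at the head of the mevalonate branch, the isomerase and farnesyl diphosphate synthase build its product into farnesyl diphosphate, and squalene synthase draws that into the sterol branch. Squalene epoxidase adds oxygen to squalene, lanosterol synthase closes the rings, and a further series of enzymes trims lanosterol to cholesterol. When sterols are scarce in the endoplasmic reticulum, the SREBP transcription factors are released and raise the transcription of the pathway, while INSIG1 retains the SREBP escort protein SCAP when sterols are plentiful. INSIG1 is itself a target of the factors it holds back. Cytochrome b5 reductase passes electrons to several membrane enzymes, including those of sterol and fatty acid modification, and has many other uses.

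Promoters of 4 of the 8 genes were in the RefSeq table (build GRCm38.p6), from 250 bases before to 50 after the annotated start. They are shown because the genes are classic targets of SREBP, which acts with the CCAAT-binding factor NF-Y. The capitals mark CCAAT (written ATTGG where it lies on the other strand), the sterol regulatory element motif TCACNCCAC and the E-box motif CACGTG. All 4 genes lie on the plus strand, and the sequences span chr13:119690101-119690400 (Hmgcs1), chr13:8885356-8885655 (Idi1), chr10:76531355-76531654 (Lss) and chr5:28071162-28071461 (Insig1).
Hmgcs1: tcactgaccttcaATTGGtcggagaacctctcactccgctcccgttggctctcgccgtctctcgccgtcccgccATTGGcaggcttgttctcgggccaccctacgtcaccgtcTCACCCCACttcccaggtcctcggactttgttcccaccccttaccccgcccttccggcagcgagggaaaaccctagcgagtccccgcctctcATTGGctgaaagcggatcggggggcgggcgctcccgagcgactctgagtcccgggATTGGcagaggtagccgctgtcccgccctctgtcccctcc
Idi1: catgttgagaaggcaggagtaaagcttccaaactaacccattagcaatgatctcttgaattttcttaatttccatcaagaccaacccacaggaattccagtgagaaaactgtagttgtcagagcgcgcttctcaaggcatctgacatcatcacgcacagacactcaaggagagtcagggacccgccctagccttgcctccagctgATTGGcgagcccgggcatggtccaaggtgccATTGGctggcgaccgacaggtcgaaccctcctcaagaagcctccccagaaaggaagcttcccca
Lss: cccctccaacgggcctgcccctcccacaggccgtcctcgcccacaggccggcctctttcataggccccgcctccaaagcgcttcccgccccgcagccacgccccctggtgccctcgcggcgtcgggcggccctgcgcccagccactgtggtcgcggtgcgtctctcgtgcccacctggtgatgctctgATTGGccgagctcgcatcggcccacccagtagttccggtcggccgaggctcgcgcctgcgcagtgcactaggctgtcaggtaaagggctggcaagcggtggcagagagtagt
Insig1: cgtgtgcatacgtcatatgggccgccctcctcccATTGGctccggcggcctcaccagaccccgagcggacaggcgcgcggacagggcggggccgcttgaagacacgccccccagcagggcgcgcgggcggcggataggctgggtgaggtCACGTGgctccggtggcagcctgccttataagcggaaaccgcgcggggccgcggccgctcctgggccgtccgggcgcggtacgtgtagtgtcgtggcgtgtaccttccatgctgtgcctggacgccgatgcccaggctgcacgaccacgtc
Hmgcs1 held 4 copies of CCAAT and 1 of TCACNCCAC, the latter at -137 from the start. Idi1 held 2 copies of CCAAT, at -45 and -14, Lss held 1 at -62, and Insig1 held 1 at -216 with a CACGTG at -101. Both strands were searched, and no marked motifs overlapped. Of 32851 mouse promoters of the same length, 37.4% held CCAAT, 1.24% held TCACNCCAC and 7.15% held CACGTG. Among 14 other enzymes of the pathway, 13 held CCAAT, 3 held CACGTG and 0 held TCACNCCAC. CCAAT was held by 6 of 12 promoters of sterol regulators and 3 of 5 of fatty acid synthesis genes. A match is a run of letters in the window and says nothing of binding in these tissues.

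By the GENCODE M21 annotation of GRCm38, all 8 are protein-coding genes. Hmgcs1 lies at chr13:119690379-119708260 and Idi1 at chr13:8885501-8892451, both on the plus strand. Fdps lies at chr3:89093588-89101959 and Fdft1 at chr14:63145150-63179578, both on the minus strand. Sqle (chr15:59315077-59331192, plus) and Cyb5r3 (chr15:83153494-83172592, minus) share a chromosome. Lss lies at chr10:76531588-76557138 and Insig1 at chr5:28071363-28078662, both on the plus strand. A transcript annotated as principal carried between 95.7% and 100% of the summed TPM of every gene but Lss. For Lss the principal transcript carried 28.2%, and 7 others shared the rest, so its total depends more on how reads were split among transcripts. For Fdps, 6 of 7 listed transcripts had no value, and for Insig1 1 of 2.

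The section labels were checked against marker genes. Summed over 8 squamous markers (Krt5, Krt14, Krt13, Krt4, Trp63, Dsg3, Krt6a and Ivl), the anus held 9031 to 25515 TPM and the neo-epithelium 14804 to 32679, against at most 22.7 in mid-colon. The rectum held 6.5 to 993. Anal sections of uninjured mice also held colonocyte RNA, with 1423 to 4402 TPM summed over 8 markers such as Car1 and Aqp8, against 14897 to 16633 in the rectum of the same mice. In the neo-epithelium that sum ran from 15.4 to 6449. Summed over 6 skeletal muscle markers such as Ckm, the anus held 1781 to 17996 TPM at day 0 and 7364 to 8615 at day 9. The rectum held 12.7 to 38 at day 0. Over 6 adipocyte markers such as Adipoq, the anus held 25.6 to 1488 TPM at day 0 and 63.5 to 168 at day 9. Uninjured anal libraries thus varied widely in both, and the part of these tissues in the anal differences was not tested. Sequencing depth is unknown, since the table gives no read counts. The 13 mitochondrially encoded genes took between 6.26% and 28.5% of a library.

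Each gene other than Insig1 had its lowest group mean in mid-colon, and all of these but Fdft1 (rectum, day 14) had their highest in the anus. Insig1 had its highest mean in mid-colon and its lowest in the anus. Across the 21 groups of section and day, the means of Lss spanned 6.99-fold, from 6.89 TPM in mid-colon at day 20 to 48.1 in the anus at day 9. Idi1 spanned 5.23-fold, from 23.5 TPM in mid-colon at day 6 to 123 in the anus at day 9. Fdps spanned 3.89-fold, from 62.2 TPM in mid-colon at day 3 to 242 in the anus at day 6. Insig1 spanned 5.13-fold, from 10.6 TPM in the anus at day 20 to 54.4 in mid-colon at day 14. The span was narrower for Cyb5r3 (2.62-fold), Sqle (2.44-fold), Fdft1 (2.09-fold) and Hmgcs1 (1.84-fold). Groups next to each other in this order overlapped in 20 of 20 neighbouring pairs for 6 of the genes. The exceptions were Sqle, in which the anus of day 9 lay above that of day 3, and Lss, in which the rectum of day 0 lay above that of day 6.

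**Figure D1:**
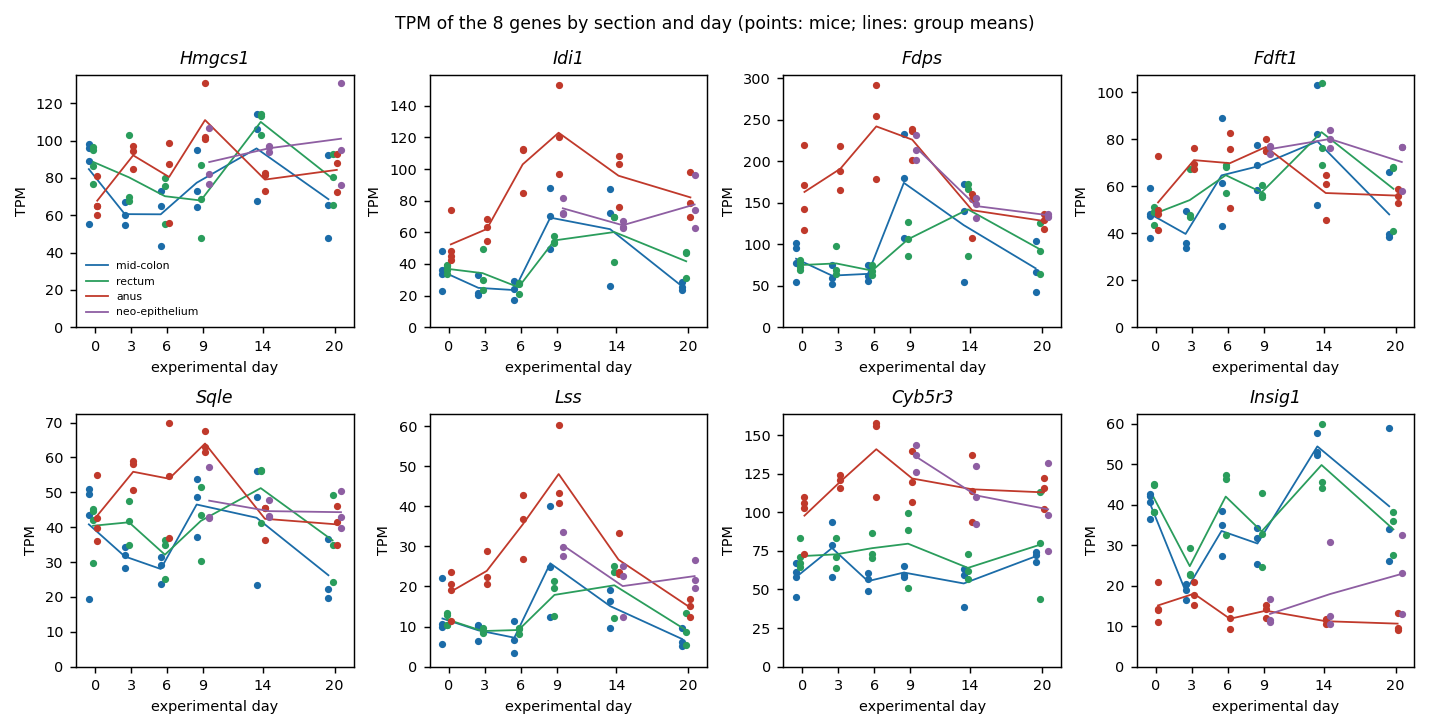
TPM of each of the 8 genes (vertical axes, starting at 0) by experimental day (horizontal axes) in mid-colon, rectum, anus and neo-epithelium; points are mice and lines join group means. Idi1 and Lss peak at day 9 in the anus, at means of 123 and 48.1 TPM, and Insig1 dips at day 3 in mid-colon and rectum, to means of 18.6 and 24.8 TPM.

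Against day 0 of the same section, Insig1 was lower at day 3 in the colon, and 3 members were called higher at day 9 in each section. In mid-colon and rectum that count was near the share of all genes called higher, as given below. At day 9 the median change of the 8 genes was 0.38 in mid-colon, 0.18 in the rectum and 0.56 in the anus, beside 0.09, 0.13 and 0.06 for all genes tested. All later days of a section were set against the same 4 control mice. In mid-colon at day 3, 1 of the 8 genes was called, Insig1, which was lower; 0.375% of the 12008 genes tested were called, 0.308% lower. At day 9, 3 were called, all higher, where 43.4% of 12323 genes were called and 26.5% were higher, so the members' share was near that of all genes. By limma none was called in mid-colon at day 6, 14 or 20, where 14.9%, 4.36% and 1.56% of all genes were called. At an unadjusted p under 0.05 these days held 0, 2 and 0 of the members. The number of all genes at that unadjusted p is given only for the response differences further below. The other unadjusted counts therefore cannot be read as particular to the members. The changes ran from -0.65 (Lss) to 0.37 (Fdft1) at day 6, from -0.12 (Cyb5r3) to 0.68 (Idi1) at day 14 and from -0.62 (Lss) to 0.31 (Cyb5r3) at day 20. In the rectum, 1 gene was called at day 3 (lower, against 6.62% of all genes called and 5.13% lower). The rectum had 2 called at day 6 (1 in each direction, against 48.7% called, 11.5% higher and 37.2% lower), 3 at day 9 (all higher, against 53.5% called and 33.5% higher) and 2 at day 14 (both higher, against 15.8% called and 6.31% higher). At day 20 none was called in the rectum, against 7.68% of all genes, and 0 had an unadjusted p under 0.05; the changes ran from -0.41 (Lss) to 0.27 (Fdps). In the anus, 1 gene was called at day 6 (higher, against 15.0% called and 8.64% higher) and 3 at day 9 (all higher, against 5.09% called and 1.46% higher). None was called in the anus at day 3, 14 or 20, against 0.0440%, 4.27% and 1.46% of all genes, and 1 member at each of these days had an unadjusted p under 0.05. The changes ran from 0.26 (Fdps) to 0.44 (Hmgcs1) at day 3, from -0.36 (Insig1) to 0.88 (Idi1) at day 14 and from -0.46 (Insig1) to 0.66 (Idi1) at day 20.

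**Figure D2:**
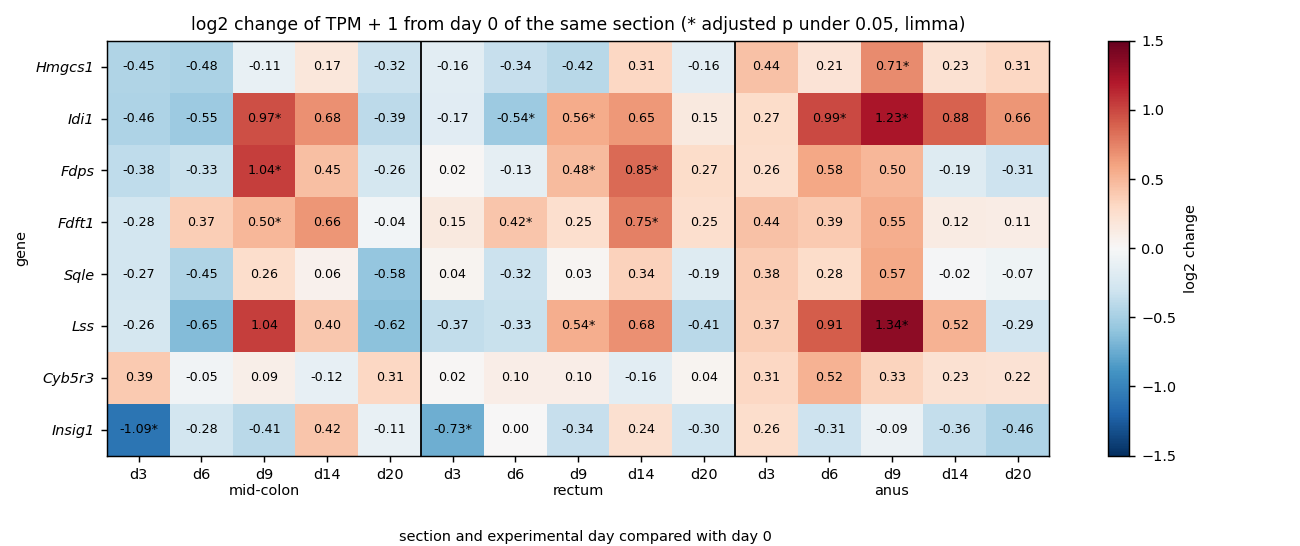
Difference in mean log2(TPM + 1) from day 0 of the same section for each gene (vertical) at days 3 to 20 in mid-colon, rectum and anus (horizontal); red is higher, blue is lower, and an asterisk marks an adjusted p under 0.05 (limma). Called changes at day 9 are higher in all 3 sections, and called changes at day 3 are the 2 lower values of Insig1.

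The centre of all log2 changes moved with the scaling used. The median change over all genes tested was -0.27 in the rectum at day 6 and 0.13 at day 9, and scaling by trimmed means of log ratios (TMM) brought these to -0.04 and -0.08. For mid-colon the medians of days 3, 6 and 9 were 0.14, -0.24 and 0.09 before TMM and 0.00, 0.00 and -0.11 after it. From day 6 to day 9 it was 0.26 in mid-colon and 0.37 in the rectum, and -0.19 and -0.07 after TMM. For some of the changes, the change from the median is therefore given beside the one as tested. In these bulk samples, fewer cells of a type and less RNA per cell cannot be told apart.

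Insig1, the sterol sensor, was the member that moved early. In mid-colon it measured 42.6, 36.5, 42.1 and 40.7 TPM in the 4 uninjured mice and 16.4, 18.8 and 20.5 TPM at day 3. The groups did not overlap, and every mouse of day 3 lay below every control. The change was -1.09 (SE 0.14, 2.12-fold lower, adjusted p = 0.0227), or -1.23 from the median of all genes. The estimate ran from -1.16 to -1.0 without 1 mouse at a time, but its adjusted p passed 0.05 in 6 of 7 of these fits (without mouse 1, 2, 3, 5, 6 or 7), reaching 0.0931, and was 0.0854 with no filter on low values. In the rectum Insig1 measured 44.8, 38.3, 38.3 and 45.2 TPM at day 0 and 29.2, 22.5 and 22.8 TPM at day 3, again without overlap. It fell by 0.73 on the log2 scale (SE 0.12, 1.66-fold lower, adjusted p = 0.00756). That call was kept without any of the 7 mice and lost where all 21 groups shared 1 estimate of the spread (adjusted p = 0.174). In the anus the values overlapped, 11.1 to 20.8 TPM at day 0 and 15.3 to 20.8 TPM at day 3.

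At day 6 Insig1 measured 27.3, 34.9 and 38.4 TPM in mid-colon and 32.4, 46.4 and 47.3 TPM in the rectum. All 3 mice of day 6 lay above all 3 of day 3 in each section. Between these days 1 member was called in mid-colon, against 31.8% of all genes and 4.80% higher, and 1 in the rectum, against 27.4% and 10.0% higher; in each it was Insig1. It rose by 0.81 (SE 0.17, adjusted p = 0.0153) in mid-colon and 0.73 (SE 0.18, adjusted p = 0.0232) in the rectum, or 1.19 and 0.93 from the median of all genes. The mid-colon call was lost without mouse 6, 9 or 10 (adjusted p up to 0.0599) and the rectal call without mouse 6, 7, 9 or 10 (up to 0.0823) and with no filter (0.0622). From day 9 to day 14 Insig1 rose again in mid-colon, from 34.2, 25.4 and 31.7 TPM to 53.1, 52.2 and 57.8 TPM (0.83, SE 0.18, adjusted p = 0.0180). It was the 1 member called there, against 19.7% of all genes and 6.37% higher, and the call was lost without mouse 12, 13 or 16 (up to 0.0737). In the rectum between these days none was called (8.04% of all genes), with 3 at an unadjusted p under 0.05 and changes from -0.26 (Cyb5r3) to 0.73 (Hmgcs1). The number of all genes at that unadjusted p is not given here.

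Idi1, which interconverts the 5-carbon building blocks of isoprenoids, changed in mid-colon, rectum and anus. In the rectum it measured 33.5, 39.5, 38.7 and 36.4 TPM at day 0, 27.1, 27.7 and 21.2 TPM at day 6, and 53.8, 53.0 and 57.7 TPM at day 9. The 3 groups did not overlap, with day 6 lowest and day 9 highest. It fell at day 6 by 0.54 (SE 0.12, adjusted p = 0.00807), which is -0.26 from the median of all genes, and the call was lost with TMM (-0.28, adjusted p = 0.0858) and with all groups in 1 fit (0.127). It rose at day 9 by 0.56 (SE 0.10, adjusted p = 0.00205), or 0.42 from the median, and this call was kept with TMM and without any mouse but lost with all groups in 1 fit (0.0864). Between day 6 and day 9 Idi1 rose by 1.09 (SE 0.16, 2.13-fold, adjusted p = 0.00181), or 0.73 from the median.

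In mid-colon Idi1 went from 33.6, 48.0, 36.3 and 22.9 TPM at day 0 and 17.2, 24.3 and 29.2 TPM at day 6 to 49.3, 70.6 and 88.2 TPM at day 9. All mice of day 9 lay above those of day 0 and day 6. The rise was 0.97 from day 0 (SE 0.26, adjusted p = 0.0134; 0.0664 without mouse 13) and 1.51 from day 6 (SE 0.26, 2.85-fold, adjusted p = 0.00239). The rise from day 6 was kept in each alternative and without any mouse. In the anus Idi1 measured 48.0, 42.3, 74.1 and 45.1 TPM at day 0, 84.9, 113 and 112 TPM at day 6, and 97.0, 120 and 153 TPM at day 9. Both later groups lay above all 4 controls. It rose by 0.99 at day 6 (SE 0.22, adjusted p = 0.0191) and 1.23 at day 9 (SE 0.24, 2.35-fold, adjusted p = 0.0207). The day 6 call was lost without mouse 2, 9 or 10 (adjusted p up to 0.0848) and the day 9 call without mouse 2, 12 or 13 (up to 0.0948) and with no filter (0.0581).

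Fdps, which makes farnesyl diphosphate for sterols, prenylated proteins and ubiquinone, rose at day 9 in the colon. In mid-colon it measured 95.8, 102, 77.9 and 54.2 TPM at day 0, 62.3, 55.3 and 75.3 TPM at day 6, and 108, 180 and 233 TPM at day 9. Day 9 lay above both other groups, with a wide spread among its mice. The rise was 1.04 from day 0 (SE 0.28, 2.05-fold, adjusted p = 0.0134; 0.0648 without mouse 13 and 0.0507 with no filter). From day 6 it was 1.36 (SE 0.27, 2.57-fold, adjusted p = 0.00483), or 1.11 from the median. In the rectum Fdps measured 72.7, 77.1, 80.9 and 68.8 TPM at day 0 and 106, 85.4 and 127 TPM at day 9. It rose by 0.48 (SE 0.14, adjusted p = 0.0195), or 0.35 from the median, and the call was lost with TMM (0.23, adjusted p = 0.0849), without mitochondrial genes, with all groups in 1 fit and without mouse 4 or 13. At day 14 the rectal values were 85.6, 173 and 167 TPM, a rise of 0.85 from day 0 (SE 0.24, adjusted p = 0.0479). Mouse 14 was the low 1 of the 3, and without it the rise was 1.18 (adjusted p = 0.000102); without mouse 1, 2, 3, 4, 15 or 16 the call was lost (up to 0.175), as it was with no filter.

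Lss, which closes squalene epoxide into lanosterol, had the largest called fold change of the 8 genes. In mid-colon it measured 10.6, 10.0, 22.0 and 5.65 TPM at day 0, 3.43, 6.75 and 11.5 TPM at day 6, and 12.4, 24.8 and 40.2 TPM at day 9. Day 9 overlapped day 0 but lay above day 6. The change from day 0 was 1.04 and was not called. The rise from day 6 was 1.69 (SE 0.46, 3.22-fold, adjusted p = 0.0201), or 1.43 from the median, and the call was lost with TMM (1.21, adjusted p = 0.0770), with no filter, and without mouse 8, 9, 12 or 13. In the rectum at day 9 Lss measured 19.6, 12.6 and 21.4 TPM against 12.8, 10.4, 10.5 and 13.5 TPM at day 0. The groups overlapped, and the rise of 0.54 (SE 0.19, adjusted p = 0.0431) was lost under 4 of 7 settings, TMM among them (0.30, adjusted p = 0.126), and without mouse 1, 2, 3, 11 or 13. In the anus Lss measured 20.6, 11.4, 23.7 and 19.1 TPM at day 0 and 40.8, 43.3 and 60.3 TPM at day 9, without overlap. This rise was 1.34 (SE 0.26, 2.54-fold, adjusted p = 0.0220), and the call was lost with no filter (0.0626) and without mouse 11, 12 or 13 (up to 0.103).

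From day 6 to day 9, 4 of the 8 genes rose in mid-colon (Idi1, Fdps, Sqle and Lss), where 40.5% of all genes were called and 31.3% were higher. In the rectum 3 rose (Idi1, Fdps and Lss), where 37.9% were called and 32.1% were higher. These shares are not far from those of all genes. The rectal rises of Fdps (0.61, SE 0.18, adjusted p = 0.0289) and Lss (0.87, SE 0.23, adjusted p = 0.0190) were 0.25 and 0.51 from the median. With TMM they were 0.10 and 0.39 and were not called (adjusted p = 0.590 and 0.115), and each was lost without mouse 8, 9, 10, 11 or 13. Of the 8, Idi1 alone was called between day 6 and day 9 in both sections under each of the 7 settings tried.

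Hmgcs1, which condenses acetoacetyl-CoA and acetyl-CoA at the head of the pathway, was called in the anus at day 9. It measured 64.9, 60.1, 81.2 and 65.0 TPM at day 0 and 101, 102 and 131 TPM at day 9, without overlap, a rise of 0.71 (SE 0.17, 1.63-fold, adjusted p = 0.0491). Without mouse 1, 2, 4, 11, 12 or 13 this call was lost (up to 0.195), as it was under 3 of 7 settings. In the rectum at day 9 Hmgcs1 stood at 86.8, 48.0 and 68.7 TPM against 76.6 to 96.6 TPM at day 0. That change was -0.42 (adjusted p = 0.0984), and -0.66 (adjusted p = 0.00634) with TMM. Insig1 on that day was also called with TMM alone, at -0.58 in the rectum (adjusted p = 0.0114; -0.34 and 0.143 without it) and -0.64 in mid-colon (adjusted p = 0.0204; -0.41 and 0.065 without it).

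Fdft1, which commits farnesyl diphosphate to sterols, measured 51.1, 49.0, 49.2 and 43.3 TPM in the rectum at day 0. It measured 57.0, 68.9 and 68.2 TPM at day 6 and 69.2, 76.4 and 104 TPM at day 14, above all controls at both days. The rises were 0.42 (SE 0.11, adjusted p = 0.0130), or 0.69 from the median, and 0.75 (SE 0.15, 1.69-fold, adjusted p = 0.0182). The day 6 call was lost with all groups in 1 fit (0.138), and the day 14 call without mouse 1, 2 or 3 (up to 0.0548). In mid-colon at day 9 Fdft1 rose by 0.50 (SE 0.18, adjusted p = 0.0480) with overlapping values of 38.1 to 59.4 TPM at day 0 and 58.4 to 77.7 TPM at day 9. That call was lost under 5 of 7 settings, TMM among them (0.26, adjusted p = 0.126), and without mouse 2, 3, 4, 12 or 13.

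Sqle, which adds oxygen to squalene, was called between day 6 and day 9 in mid-colon. It measured 23.7, 29.0 and 31.4 TPM at day 6 and 37.3, 48.6 and 53.8 TPM at day 9, without overlap. The rise of 0.70 (SE 0.19, adjusted p = 0.0177) was 0.45 from the median and 0.19 with TMM (adjusted p = 0.388), and was lost without mouse 8, 9, 12 or 13. Cyb5r3 was called at no day in any section against day 0 with all mice, and in the rectum at day 9 it was called without mouse 12 (0.39, adjusted p = 0.0325). With TMM it was called higher in the rectum at day 6 (0.36, adjusted p = 0.0302; 0.10 and 0.502 without it). Its group means ran from 53.9 to 76.9 TPM in mid-colon, 64.0 to 79.7 TPM in the rectum and 97.9 to 141 TPM in the anus.

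Single libraries moved several of these counts. The share of all genes called in the fits without a mouse is not given here. The calls below therefore cannot be read as particular to the 8 genes. The mid-colon of mouse 4 (day 0) was the lowest control for Idi1, Fdps, Fdft1, Sqle, Lss, Hmgcs1 and Cyb5r3, and mitochondrial genes took 20.8% of it. Without it, 4 members were called lower in mid-colon at day 6: Hmgcs1 (-0.67, adjusted p = 0.0238), Idi1 (-0.73, 0.0273), Fdps (-0.51, 0.0294) and Sqle (-0.76, 0.00573). Mouse 14 was the lowest of day 14 for Idi1, Fdps and Lss in mid-colon and rectum, with mitochondrial shares of 25.4% and 18.4%. Without it, Idi1 (1.20, adjusted p = 0.0269) and Fdft1 (0.93, 0.0235) were called higher in mid-colon. In the rectum 5 members were then called higher at day 14: Hmgcs1 (0.36), Idi1 (0.90), Fdps (1.18), Fdft1 (0.87) and Lss (1.00). Mouse 11 was the lowest of day 9 in mid-colon for Idi1, Fdps, Sqle and Lss. Without it 5 members were called there, with Lss added at 1.47 (adjusted p = 0.0249) and Insig1 at -0.49 (0.0452); Lss was also called without mouse 3 (1.36, 0.0235). Without mouse 19, the rectum of day 20 held 2 called members, Fdps (0.52) and Fdft1 (0.49). Without mouse 11, Hmgcs1 (-0.61) and Insig1 (-0.53) were called lower in the rectum at day 9. Without mouse 3, Lss (1.04) was called in the anus at day 6 and Idi1 (1.06) at day 14. Between day 3 and day 6 in mid-colon, Cyb5r3 (-0.63) was called without mouse 5 and Fdft1 (0.90) without mouse 8. In the rectum at day 6 Sqle (-0.46) was called without mouse 4 and Hmgcs1 (-0.45) without mouse 9. In the anus at day 9 Fdft1 (0.72) and Sqle (0.69) were called without mouse 1. In the neo-epithelium at day 20 against day 9, Insig1 (1.04) was called without mouse 18 and Cyb5r3 (-0.65) without mouse 19.

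Markers of other cell states moved with these changes, and their part in them was not tested. Of 8 proliferation genes (among them Mki67 and Pcna), 8 had a log2 change below 0 at day 3 in both mid-colon and rectum, and 7 were called lower in the rectum. Their summed level was 80.4 to 94.8 TPM in the rectum at day 3 against 192 to 229 TPM at day 0. At day 9 all 8 were called higher in both sections, with sums of 828 to 1340 TPM in mid-colon (123 to 193 at day 0) and 810 to 926 TPM in the rectum. At day 6 all 4 goblet cell markers were called higher in the rectum, with sums of 17579 to 18725 TPM against 8137 to 10655 TPM at day 0, and 2 of 4 in mid-colon (22072 to 24524 against 15502 to 19876 TPM). All 6 macrophage markers were called higher at day 6 in both, with sums of 279 to 676 TPM in the rectum (85.0 to 102 at day 0) and 173 to 278 TPM in mid-colon (47.8 to 73.6). Neutrophil markers summed to 2054 to 6277 TPM in that rectum, with 6 of 6 called higher, and to 1216 to 2434 TPM in that mid-colon (532 to 957 at day 0), with 4 of 4 tested called higher. At day 0, 4 of the 6 were under 1 TPM in every mid-colon library and 3 in every rectal library. The neutrophil sums of day 0 thus rest on the few other markers. All 8 colonocyte markers were called lower in both sections at day 9, with sums of 6366 to 8956 TPM in mid-colon (16025 to 20802 at day 0) and 5608 to 7398 TPM in the rectum (14897 to 16633). Neutrophil markers summed to 12597 to 14472 TPM in the rectum at day 9 against 605 to 737 TPM at day 0. In the anus the colonocyte sum was 1423 to 4402 TPM at day 0 and 41.4 to 56.1 TPM at day 9, with 7 of 8 markers called lower. The sum of 8 sebaceous gland markers there (among them Awat2, Mc5r and Krt79) was 81.2 to 588 TPM at day 0, 616 to 865 at day 6 and 873 to 1380 at day 9. Of these 8, 1 was called higher at day 9 and 8 stood above 0 in log2 change. In mid-colon and rectum the sebaceous sum was at most 3.57 TPM in any library, and Mc5r was listed at 0 in all of them.

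Between sections of uninjured mice, the anus held more Fdps and less Insig1 than the rectum of the same mice. Fdps measured 220, 171, 143 and 117 TPM in the anus and 72.7, 77.1, 80.9 and 68.8 TPM in the rectum, and Insig1 measured 11.1, 14.3, 14.0 and 20.8 against 44.8, 38.3, 38.3 and 45.2 TPM. Neither gene overlapped between the sections. Fdps was 2.10-fold higher (1.07, SE 0.18, adjusted p = 0.000682) and Insig1 was 2.71-fold lower (-1.44, SE 0.18, adjusted p = 0.000118). Both calls were kept under every alternative and without any mouse. In all, 6 members were called, 4 higher and 2 lower, where 60.3% of 13158 genes were called, 25.9% higher and 34.4% lower, so the count is what genes at large showed. The other 4 were Idi1 (0.46), Lss (0.58), Cyb5r3 (0.44) and Hmgcs1 (-0.39). With the mouse as a block, Idi1 (adjusted p = 0.0598) and Hmgcs1 (0.0572) were no longer called, and 4 members remained. Idi1, Lss, Cyb5r3 and Hmgcs1 each lost the call without at least 2 of the 4 mice. Fdps and Insig1 were called whichever mouse was left out, beside 1 further member that was Cyb5r3, Lss or Hmgcs1. All 8 squamous markers were higher and all 8 colonocyte markers lower in the anus, and the part of this tissue difference was not tested. Rectum and mid-colon at day 0 differed in 0 of the 8 genes, against 1.79% of all genes, and 0 had an unadjusted p under 0.05. For Fdps that difference was -0.10, with a 95% interval of -0.50 to 0.30.

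By medians and by means, the neo-epithelium lay between rectum and anus of the same 9 mice for Idi1 and Insig1. For Fdps this held by medians only, and for Lss, Sqle and Cyb5r3 by means only. It held by neither for Hmgcs1 and Fdft1. Idi1 alone was called against both sections, and Insig1 was not called against the anus. Over days 9, 14 and 20, Insig1 measured 10.5 to 32.6 TPM (median 13.0) in the neo-epithelium, 24.6 to 59.9 (median 38.1) in the rectum and 9.02 to 15.3 (median 11.7) in the anus. It was lower in the neo-epithelium than in the rectum of 8 of 9 mice (-1.16, SE 0.22, 2.23-fold lower, adjusted p = 0.000399). Idi1 measured 62.9 to 96.0 TPM (median 71.7) in the neo-epithelium, 31.0 to 70.0 (median 53.0) in the rectum and 69.5 to 153 (median 98.2) in the anus. It was higher than in the rectum of 7 of 9 mice (0.49, SE 0.14, adjusted p = 0.00797) and lower than in the anus of 8 of 9 (-0.44, SE 0.12, adjusted p = 0.00519).

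Against the rectum, 5 members were called, 4 higher and 1 lower, where 42.9% of all genes were called, 20.9% higher and 22.0% lower. Besides Idi1, the higher ones were Fdps (0.57, adjusted p = 0.0112), Lss (0.68, adjusted p = 0.0198) and Cyb5r3 (0.67, adjusted p = 0.00462), each higher in 7 or 8 of 9 mice. The Lss call was lost without mouse 12, 18 or 19 (up to 0.0626), and the other 4 were kept without any mouse. Against the anus, 2 members were called, 1 in each direction, where 59.8% of all genes were called, 40.1% higher and 19.7% lower. Besides Idi1 this was Fdft1, which was higher in 8 of 9 mice (0.26, SE 0.09, adjusted p = 0.0184). The median of all genes in that comparison was 0.18, and with TMM the Fdft1 difference was 0.06 (adjusted p = 0.612). With TMM, Sqle (-0.28, adjusted p = 0.0410) and Cyb5r3 (-0.23, adjusted p = 0.0340) were called lower than in the anus. Hmgcs1 was called in neither comparison.

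Insig1 in the neo-epithelium moved with colonocyte RNA. The 3 highest Insig1 values, 32.6, 30.7 and 23.1 TPM in mice 19, 14 and 17, were in the libraries with the 3 highest colonocyte sums, 6449, 5149 and 5779 TPM. In the other 6 libraries Insig1 was 10.5 to 16.6 TPM and the colonocyte sum 15.4 to 2841 TPM. The squamous sum of those 3 libraries was 22404, 14804 and 19647 TPM. The part of colonocyte RNA in the Insig1 difference was not tested. Fdps in the neo-epithelium fell with time, from 232, 202 and 214 TPM at day 9 to 132, 149 and 156 TPM at day 14 and 133, 134 and 137 TPM at day 20. Day 9 lay above both later days, by 0.56 (SE 0.11, adjusted p = 0.0260) and 0.68 (SE 0.12, adjusted p = 0.00986). It was the 1 member called at each, both lower, against 16.8% and 26.2% of all genes called and 9.77% and 16.1% lower. The day 14 call was lost without mouse 11, 12, 13, 15 or 16, and the day 20 call without mouse 13 (adjusted p = 0.0593). The summed proliferation markers of the neo-epithelium also differed by day, with 835 to 871 TPM at day 9, 424 to 478 TPM at day 14 and 323 to 403 TPM at day 20. From day 9 to day 20 of the neo-epithelium the colonocyte sum went from 15.4 to 469 TPM to 2841 to 6449 TPM, with 8 of 8 markers called higher. The goblet sum went from 4.14 to 61.5 TPM to 2480 to 5366 TPM, with 4 of 4 higher. The fibroblast sum went from 2052 to 3032 TPM to 490 to 1006 TPM (5 of 6 lower), the neutrophil sum from 7231 to 19060 TPM to 813 to 5879 TPM (2 of 6 lower) and the squamous sum from 30503 to 32679 TPM to 19647 to 24025 TPM (1 of 8 lower). The part of any of these markers in the fall of Fdps was not tested.

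**Figure D3:**
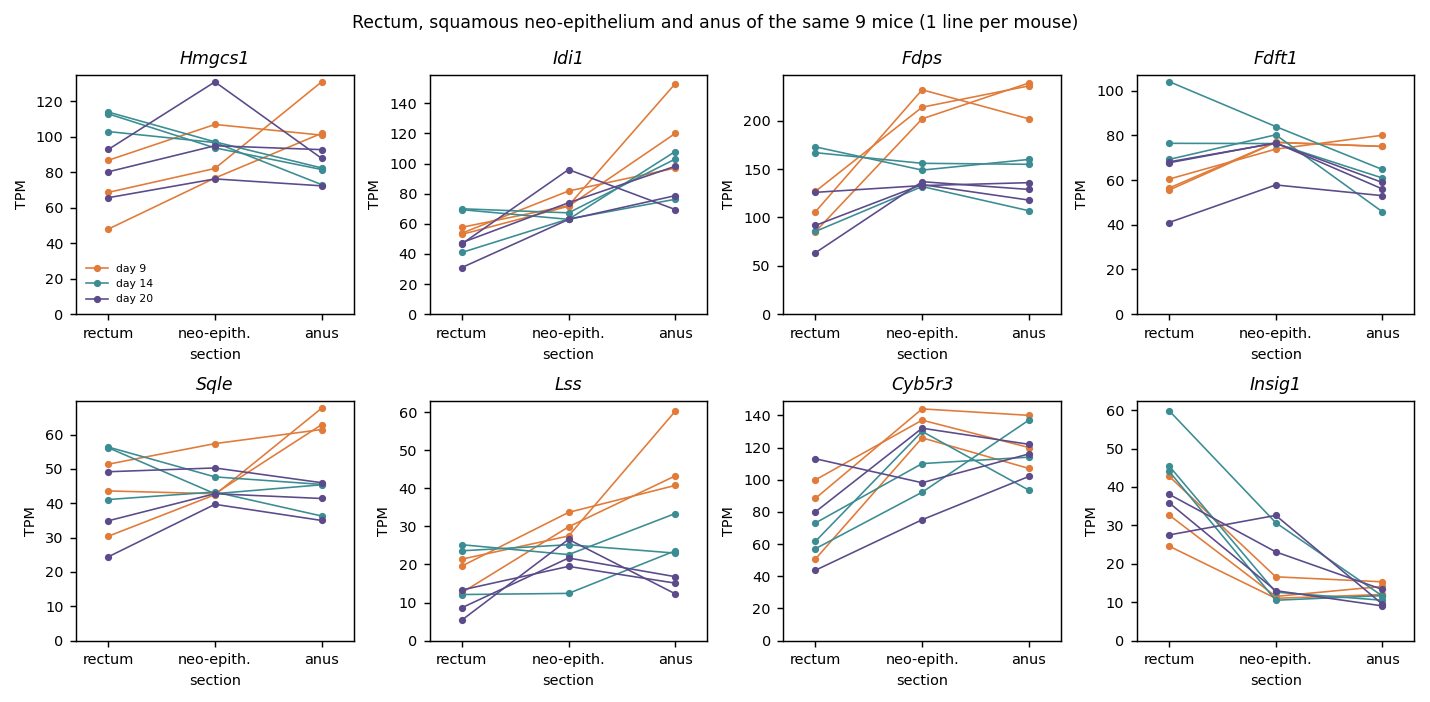
TPM of each of the 8 genes (vertical axes, starting at 0) in rectum, neo-epithelium and anus; each line joins the sections of 1 of 9 mice and its colour gives the day. Insig1 is lower in the neo-epithelium than in the rectum of 8 of 9 mice, and Idi1 is lower in the neo-epithelium than in the anus of 8 of 9.

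The response of the rectum was compared directly with that of mid-colon. At days 3, 6 and 9, 0 of the 8 genes differed in their change from day 0, against 0%, 0% and 6.55% of all genes, and 0 members had an unadjusted p under 0.05 (971, 730 and 2469 of all genes did). For Insig1 at day 3 the difference, rectum minus mid-colon, was 0.35 with a 95% interval of -0.02 to 0.73. For Fdps at day 9 it was -0.56, with an interval of -1.31 to 0.19. Differences of about 1 log2 unit in Fdps thus lie within the interval.

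Elsewhere in the pathway, enzymes moved in both directions at day 9 in the colon. Of 14 other enzymes, 3 rose and 2 fell in mid-colon, where 43.4% of all genes were called and 26.5% were higher. In the rectum 6 rose and 4 fell, where 53.5% were called and 33.5% were higher. The list medians were 0.40 and 0.13, against 0.09 and 0.13 for all genes tested. The risers included the early enzymes Acat2, acetoacetyl-CoA thiolase (1.32 in mid-colon and 0.62 in the rectum), and Pmvk, phosphomevalonate kinase (0.90 and 0.89), and the sterol reductase and nuclear envelope protein Lbr (1.37 and 0.94). Each of these calls was kept with TMM. Those that fell in mid-colon were Sc5d and Dhcr7, and in the rectum Tm7sf2 (-0.92, adjusted p = 0.00144) and Ebp as well, all of them enzymes that act after lanosterol. Lbr also acts after lanosterol, and it rose in both sections. Cyp51, Msmo1 and Hsd17b7, which act after lanosterol too, rose in the rectum, and none of these 3 calls was kept with TMM. Dhcr7, the last step of the branch through 7-dehydrocholesterol, measured 81.7, 67.7, 94.4 and 60.1 TPM in the rectum at day 0 and 26.2, 11.0 and 23.0 TPM at day 9, without overlap. It fell by 1.93 there (SE 0.28, adjusted p = 0.000516) and by 1.73 in mid-colon (SE 0.31, adjusted p = 0.00148), and both calls were kept with TMM and without any mouse.

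In the colon at day 6 the list leaned lower, on the day when goblet, macrophage and neutrophil markers stood higher, as given above; their part was not tested. Of the 14 enzymes, 5 fell and 0 rose in mid-colon, where 14.9% of all genes were called. In the rectum 8 fell and 1 rose, where 48.7% were called and 37.2% were lower. The list medians were -0.51 and -0.38, against -0.24 and -0.27 for all genes. Dhcr7 fell by 1.15 in mid-colon and 1.14 in the rectum. Tm7sf2, a sterol reductase, fell by 1.17 and 1.06. Lbr fell by 1.09 in the rectum (adjusted p = 0.000275), before its rise at day 9. The 1 riser was the methylsterol oxidase Msmo1 in the rectum (0.63, adjusted p = 0.00244). At day 14 in the rectum 3 rose (Pmvk, Cyp51 and Msmo1) and 1 fell (Dhcr7). Of all genes, 15.8% were called there and 6.31% were higher.

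**Figure D4:**
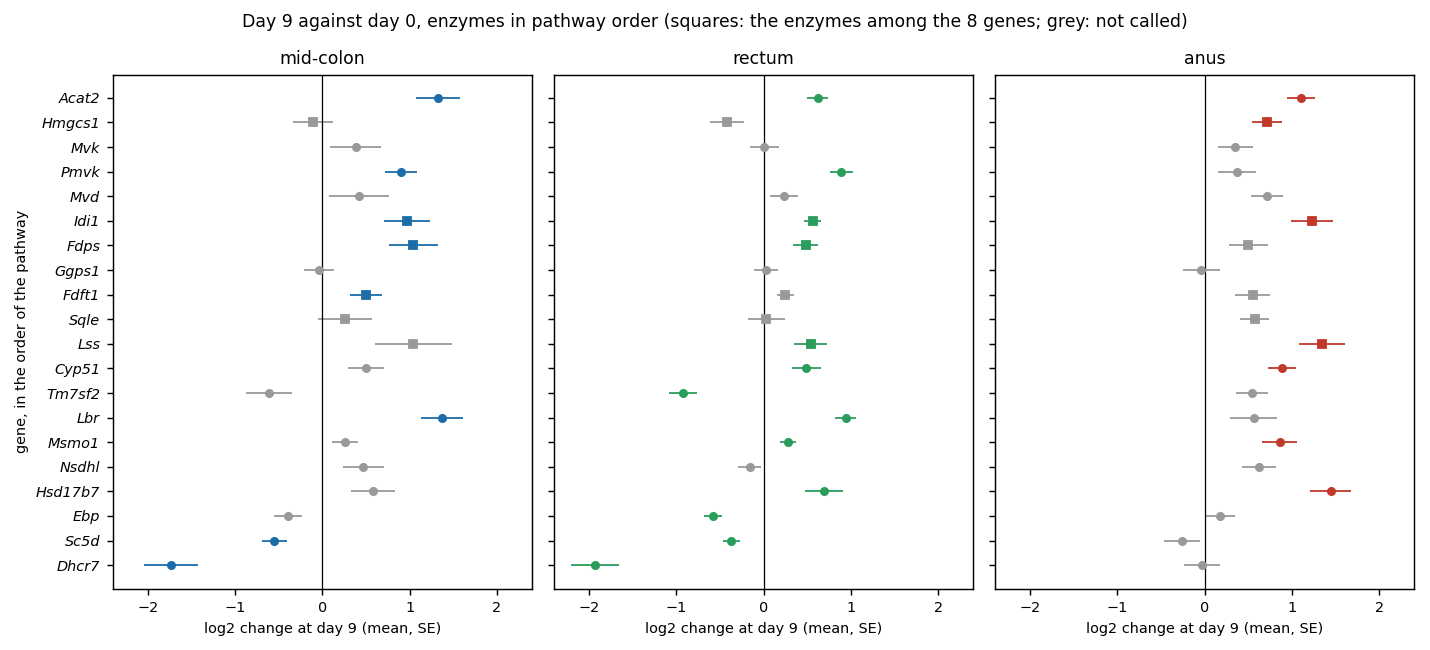
Difference in mean log2(TPM + 1) between day 9 and day 0 (horizontal axes; bars are 1 SE) for enzymes in pathway order, from acetoacetyl-CoA thiolase at the top to Dhcr7, in mid-colon, rectum and anus. Squares are enzymes among the 8 genes, and grey symbols were not called; Sc5d and Dhcr7 lie below 0 in mid-colon and rectum, whereas every called enzyme of the anus lies above 0.

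In the anus at day 9, 4 of the 14 rose and 0 fell, where 5.09% of all genes were called and 1.46% were higher. The list median was 0.55, against 0.06 for all genes. Those that rose were the lanosterol demethylase Cyp51 (0.88), Msmo1 (0.86), Hsd17b7, a sterol ketoreductase (1.44), and Acat2 (1.10). The Msmo1 call was lost with TMM (0.81, adjusted p = 0.0817). Dhcr7 measured 31.2, 31.6, 33.6 and 47.8 TPM at day 0 and 42.9, 30.6 and 31.8 TPM at day 9. At day 6, Acat2, Cyp51 and Hsd17b7 rose in the anus and 0 fell, where 15.0% of all genes were called and 8.64% were higher.

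The neo-epithelium kept a lower level than the anus for much of the list, with 7 of 14 called lower and 4 higher. Of all genes, 19.7% were lower and 40.1% were higher. Msmo1 was lower than in the anus of 8 of 9 mice (-0.90, adjusted p = 0.000218). Mvk, mevalonate kinase, had the largest called difference from the rectum, where it was higher in the neo-epithelium of 8 of 9 mice (1.04, adjusted p = 0.000184). The sebaceous sum was 1.36 to 5.85 TPM in the neo-epithelium and 200 to 1380 TPM in the anus of the same mice, and its part in these differences was not tested.

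Of 16 regulators and transporters of sterol metabolism, 15 were tested against day 0 in the colon and 14 in the anus. Npc1l1, an intestinal cholesterol importer, was under the filter in each. In the rectum at day 6, 10 fell and 1 rose, where 48.7% of all genes were called and 37.2% were lower. The list median was -0.55 against -0.27 for all genes, and with TMM the calls over all genes went from 1455 higher and 4690 lower to 2372 and 2238. Those that fell included the transcription factors Srebf2 (-0.56, adjusted p = 0.0320) and Srebf1 (-1.07, adjusted p = 0.00559), the sterol carrier Stard4 (-0.86, adjusted p = 0.0153) and the ubiquitin ligase Mylip (-1.38, adjusted p = 0.000960). The Srebf2 call was lost with TMM (-0.30, adjusted p = 0.171), with no filter, with all groups in 1 fit and without mouse 1, 2, 3, 8, 9 or 10. Its other changes from day 0 ran from -0.74 (mid-colon, day 20) to 0.36 (anus, day 3) and were not called. From day 3 to day 6 Srebf2 fell by 0.75 in mid-colon (adjusted p = 0.0369, lost with TMM at 0.284 and without mouse 6, 7, 9 or 10) and by 0.72 in the rectum (adjusted p = 0.00703, and 0.0211 with TMM). From day 6 to day 9 it rose by 0.82 in the rectum (adjusted p = 0.0217, lost with TMM at 0.180 and without mouse 8, 9, 10 or 13), and in the other comparisons it was not called. The riser was Insig2, the close relative of Insig1 (0.66, adjusted p = 0.0138). At day 9 in the rectum 5 fell and 2 rose, where 53.5% of all genes were called, with a list median of -0.25 against 0.13. Mylip (-1.34, adjusted p = 0.00220) and Stard4 (-1.04, adjusted p = 0.000193) were lower again. The risers were the cholesterol exporter Abca1 (1.72, adjusted p = 0.000255) and the lipoprotein receptor Scarb1 (1.06, adjusted p = 0.00347). The rise of Abca1 was larger in the rectum than in mid-colon by 1.85 (SE 0.29, adjusted p = 0.00158), and macrophage markers summed to 475 to 678 TPM in that rectum against 85.0 to 102 TPM at day 0; their part was not tested.

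Of 7 genes of fatty acid synthesis, a pathway that also answers to SREBP, 3 fell in mid-colon and 5 in the rectum at day 6, and 0 rose, where 14.9% and 48.7% of all genes were called. The list medians were -0.95 in both, against -0.24 and -0.27 for all genes. The desaturase Scd2 fell most, by 1.91 in mid-colon (adjusted p = 0.0182) and 2.86 in the rectum (adjusted p = 0.00134). In the anus at day 9, where 1.46% of all genes were higher, 1 of 7 rose, the elongase Elovl6 (1.23, adjusted p = 0.00722). Scd1, a desaturase abundant in sebaceous glands, measured 108 to 686 TPM in the anus and 4.78 to 13.2 TPM in the neo-epithelium of the same mice, a difference of -5.13 (SE 0.22, adjusted p = 4.74e-12).

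Across the 21 group means, Idi1, Fdps, Lss and Sqle ran most closely together. Pearson's r was 0.94 between Fdps and Lss, 0.93 between Idi1 and Lss and 0.91 between Idi1 and Fdps, and Sqle had 0.84 to 0.90 with these. Hmgcs1 and Fdft1 had 0.56 to 0.74 with the other synthesis enzymes. Insig1 had -0.61 with Idi1 and Fdps and -0.88 with Cyb5r3. The 21 points share mice and the division into colon and squamous tissue, so these values are a description. Of 11832 other genes, the ones most like the mean profile of the members were Cyp51 (r = 0.918) and Acat2 (0.879), both enzymes of the pathway, and then Focad (0.859), Bin3 (0.859), Ctc1 (0.836), R3hcc1 (0.834), Pdk3 (0.833) and Smpdl3b (0.833).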

How the data were processed

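RNA was sequenced from 66 sections of 19 mice as stranded mRNA libraries with single-end reads of 75 bp, per the labels' protocols. CASAVA, kallisto and mm10 are named in the submitters' processing notes, without versions. The authors deposited 1 table of TPM per transcript, in 126860 lines. Of these, 37344 hold no values and 1318 repeat another line, which left 88198 transcripts. TPM was added per gene (30452 genes), leaving out 1284 transcripts with no gene, which took 0.563% to 2.83% of a library. The deposited TPM holds no read counts, so the precision that depth gives is unknown, and because TPM is a share, a rise in some genes lowers others.

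Differences in log2(TPM + 1) of the deposited values were fitted with limma 3.58.1 in R 4.3.3 (empirical Bayes with trend) on the groups compared. A gene was tested where its TPM was at least 1 in a number of samples equal to the size of the smaller group, and p-values were Benjamini-Hochberg adjusted over all genes tested; the scripts were tested on simulated data. In comparisons of days within a section, each p-value measures the spread between mice. In comparisons of sections and of their responses, it measures the spread between libraries. There, sections of the same mouse were taken as separate samples. The labels tie sections to mice, so fits with the mouse as a block were also run. Deviations of sections from the same mouse had a mean correlation of 0.0538 (anus and rectum), 0.146 (rectum and mid-colon), 0.275 (neo-epithelium and rectum) and 0.166 (neo-epithelium and anus). The 7 other settings were a pseudocount of 0.1, no filter, a filter of 5 TPM, TMM factors, leaving out 13 mitochondrially encoded genes, the most abundant transcript only, and all 21 groups in 1 fit. Each mouse was also left out in turn.

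The 8 genes are counted in every comparison, and named where a call was made or changed. For the other lists the rule took up to 4 called genes with the largest change per comparison, and Srebf2 throughout. The text prints a selection of these, and other genes named were chosen after their values were seen. The members and lists were chosen with earlier results of these data known. Promoters of 4 members, and values of 3 genes of the other lists, are not reported here.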

Additional observations from a re-analysis of the deposited data

How the results depend on the processing

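Of 41 calls of the 8 genes, 16 were kept in every setting and 10 of these also without any single mouse; none changed sign. Of 212 calls in the other lists, 115 were kept in every setting and 2 changed sign in a setting. Those were Ebp in mid-colon from day 3 to day 6 (0.02 with TMM) and Msmo1 in the anus against the rectum (-0.18 with the most abundant transcript).

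The number of the 8 genes called moved by more than 1.5 times as follows. With no filter it was 0 in mid-colon at day 3, 1 in mid-colon at day 9, 1 in the rectum at day 14, 0 in the anus at day 9 and 0 in the rectum from day 3 to day 6. Without mitochondrial genes it was 4 in the rectum at day 6, 2 in mid-colon from day 3 to day 6 and 3 in the anus against the rectum. With all groups in 1 fit it was 0 in the rectum at days 3, 6 and 9, and 0 in the neo-epithelium from day 9 to day 14. In that fit it was 1 in mid-colon at day 14, 2 in the anus at day 6, 1 in the anus at day 14, 2 in mid-colon from day 3 to day 6, 1 in the rectum from day 9 to day 14 and 2 in the anus against the rectum. It was 2 with TMM in the rectum from day 9 to day 14, and 2 with a filter of 5 TPM in the anus at day 6. With the most abundant transcript it was 1 in the rectum at day 14 and 2 in the neo-epithelium at day 20. Smaller moves included, in the anus against the rectum, the loss of Idi1 and Lss with no filter and of Hmgcs1 with TMM. From day 6 to day 9 in mid-colon Sqle was lost with TMM, and Lss with TMM and no filter. Fdft1 in the neo-epithelium against the anus was lost with TMM and in 1 fit. The cause was not tested.

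The share of all genes called without 1 mouse is not given here. The counts from those fits therefore cannot be read as particular to the 8 genes. Without 1 mouse at a time the number of the 8 genes called ran from 0 to 1 in mid-colon at day 3 and 0 to 4 at day 6. It ran from 0 to 5 at day 9 and 0 to 2 at day 14. In the rectum it ran from 2 to 3 at day 6, 1 to 4 at day 9, 0 to 5 at day 14 and 0 to 2 at day 20. In the anus it ran from 0 to 2 at day 6, 0 to 4 at day 9 and 0 to 1 at day 14. In mid-colon it ran from 0 to 2 between days 3 and 6, 2 to 4 between days 6 and 9 and 0 to 1 between days 9 and 14. In the rectum it ran from 0 to 1 between days 3 and 6 and 1 to 3 between days 6 and 9. It was 3 in the anus against the rectum, and ran from 0 to 1 and 0 to 2 in the neo-epithelium at days 14 and 20 against day 9. With the mouse as a replicate block 4 genes were called in the anus against the rectum, and no other call of the 8 genes changed.

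Counts over all genes moved by more than 1.5 times in the comparisons given here. With no filter, against day 0, they went from 45 to 4, 1785 to 1022, 529 to 239 and 189 to 22 in mid-colon at days 3, 6, 14 and 20, and from 2017 to 1189 and 973 to 202 in the rectum at days 14 and 20. In the anus they went from 6 to 0, 692 to 373, 588 to 246 and 201 to 59 at days 3, 9, 14 and 20. Between days they went from 3777 to 1379 (mid-colon, 3 to 6), 2425 to 1510 (mid-colon, 9 to 14), 3336 to 1794 (rectum, 3 to 6), 1054 to 114 (rectum, 9 to 14) and 2207 to 1379 (neo-epithelium, 9 to 14). With TMM they went from 45 to 148, 529 to 1178 and 189 to 604 in mid-colon at days 3, 14 and 20, 973 to 1692 in the rectum at day 20, and 6 to 2, 692 to 1161 and 201 to 307 in the anus at days 3, 9 and 20. With TMM they also went from 3777 to 1934 (mid-colon, 3 to 6) and 1054 to 1769 (rectum, 9 to 14). With all groups in 1 fit they went from 529 to 967 and 189 to 1355 in mid-colon at days 14 and 20, 818 to 290 in the rectum at day 3 and 1054 to 3740 in the rectum from day 9 to day 14. In that fit the anus went from 6 to 64, 2060 to 3709, 692 to 1916, 588 to 1490 and 201 to 2003 at days 3, 6, 9, 14 and 20. With a filter of 5 TPM they went from 529 to 318 (mid-colon, day 14) and 6 to 3 (anus, day 3). With the most abundant transcript they went from 529 to 333 and 189 to 81 (mid-colon, days 14 and 20) and from 6 to 1, 588 to 385 and 201 to 110 (anus, days 3, 14 and 20). Rectum against mid-colon at day 0 went from 216 to between 34 (no filter) and 349 (mouse as a block). The response difference of these sections went from 0 to at most 3 at day 3, 0 to at most 76 at day 6 (mouse as a block) and 885 to 444 (pseudocount 0.1) or 507 (1 fit) at day 9. TMM also moved the split of higher and lower calls. It went from 3264 and 2089 to 2852 and 3672 in mid-colon at day 9, from 1455 and 4690 to 2372 and 2238 in the rectum at day 6, and from 4404 and 2624 to 3451 and 4185 in the rectum at day 9. From day 6 to day 9 it went from 3794 and 1125 to 2255 and 3816 in mid-colon and from 4115 and 751 to 1986 and 2440 in the rectum.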
